A study of Mus musculus with 6 samples.

Results

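The Cyp2 family is the largest family of cytochrome P450 genes in the mouse. Its members were taken as every gene whose symbol in the deposited comparison table reads Cyp2, a subfamily letter and a number, which gave 48 of the 54446 genes listed. They fall into 13 subfamilies, *Cyp2a* to *Cyp2w*, and are described here in livers of *Fmo5-/-* mice and of WT controls. *Fmo5* encodes flavin-containing monooxygenase 5, which, like the P450s, is an oxygenase of the endoplasmic reticulum of hepatocytes. RNA-seq was carried out on liver of 3 WT C57BL/6J and 3 *Fmo5-/-* mice, with 1 library of single reads of 75 bases per mouse. All were males of 32 weeks of age. Both genotypes thus share the C57BL/6J background, in which *Fmo5* had been knocked out, as well as diet (chow) and the time of day of sampling, the morning. The mice were kept in neighbouring cages, and how the genotypes were divided over the cages is not stated.

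P450 enzymes are haem proteins that receive electrons from P450 oxidoreductase and use molecular oxygen to hydroxylate or epoxidize lipophilic substrates. Those of the Cyp2 family act on drugs and other foreign compounds, on steroids, and on fatty acids such as arachidonate, which several *Cyp2c* and *Cyp2j* enzymes turn into epoxides. Many *Cyp2* genes lie in tandem clusters of near-identical copies, several are induced through the nuclear receptors CAR and PXR, some differ between male and female liver through the pulses of growth hormone, and many are expressed in either the perivenous or the periportal part of the liver lobule.

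The libraries held between 44886286 and 52338675 counts on genes, and the Cyp2 family took 1.26% to 1.59% of them. *Fmo5*, on chr3:97628804-97655282, had 39807, 37405 and 30240 normalized counts in the WT mice and 1071, 1102 and 1194 in the *Fmo5-/-* mice. This is a log2 fold change of -5.00 (SE 0.14, edgeR adjusted p = 2.8e-07), in the direction that the labels give. Normalized counts are counts divided by the TMM-scaled size of the library and brought to the mean size of the 6. The hepatocyte markers *Alb*, *Apoa1*, *Apob*, *Ttr*, *Fgb* and *Serpina1c* summed to between 109957 and 141513 CPM (counts as a share of the library, scaled to 1 fixed total) in WT and between 110464 and 137569 CPM in *Fmo5-/-* mice. All 7 Kupffer cell markers had a log2 fold change above 0, and their sum was 183 to 216 CPM in WT and 291 to 526 CPM in *Fmo5-/-* mice, with no marker at 0. Markers of T, NK and B cells summed to 3.20 to 5.53 CPM in WT and 6.45 to 21.2 CPM in *Fmo5-/-* mice. *Fmo5-/-* replicate 3 was lowest of its genotype in all 7 Kupffer cell markers and in 5 of 6 markers of T, NK and B cells. The part of these cells in the Cyp2 values was not tested. In whole liver, a different number of cells of a type and a different amount of RNA per cell cannot be told apart.

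Counts were found for 47 of the 48 members, and 38 passed the filter on low counts and were tested among 16734 genes. Of the 38 tested members, 2 were higher in *Fmo5-/-* mice at an edgeR adjusted p under 0.05, *Cyp2g1* and *Cyp2c55*, against 0.675% of all genes tested and 1.37% in either direction. No member was lower by this test, against 0.693% of all genes tested, although 9 members had a lower value with an unadjusted p under 0.05. With the DESeq2 Wald test the same 2 members were higher and 4 were lower, *Cyp2c38*, *Cyp2c39*, *Cyp2f2* and *Cyp2j5*, against 4.75% and 4.21% of genes by that test and 8.96% in either direction. An unadjusted p under 0.05 was found for 11 members, or 28.9% of those tested, and for 21.8% of all genes tested. The values of the 3 WT and the 3 *Fmo5-/-* mice did not overlap in 10 members, 8 lower and 2 higher, or 26.3% of those tested, against 27.4% of all genes. These shares of members without overlap and of all genes lie close together. The log2 fold change was below 0 in 23 of the 38, with a median of -0.065, against 49.2% of all genes and a median of 0.0058. With 1 library left out it was below 0 in 19 to 24 of the 38, with 19 and a median of the members of 0.0059 without WT replicate 2, 20 without WT replicate 3, and 21 without WT replicate 1 or *Fmo5-/-* replicate 2. Among members with a mean of 500 or more normalized counts it was below 0 in 17 of 24, with a median of -0.10, and among all such genes in 63.9%, with a median of -0.062. With this limit set before the fit, which changes the scaling, it was below 0 in 14 of the 24, with a median of -0.037, against a median of 0.0018 over all such genes. Of these 24 members 1 was called by edgeR (*Cyp2c55*), against 1.61% of such genes, and 6 were without overlap, against 31.3%. For 14 of the 38 members the whole 95% confidence interval of the log2 fold change lay within 0.5 of 0.

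**Figure D1:**
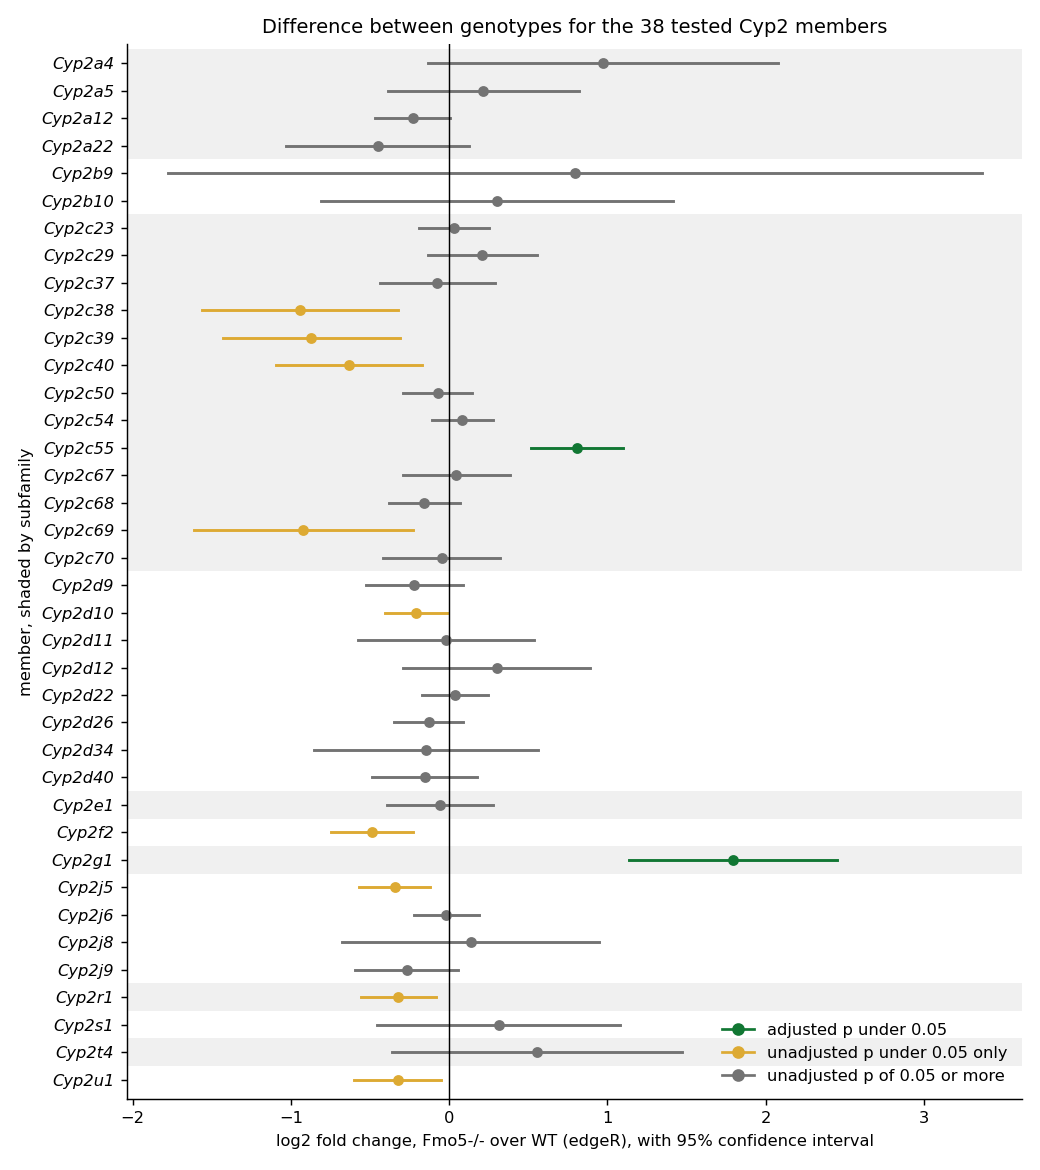
Log2 fold change (*Fmo5-/-* over WT, x axis) of each of the 38 tested *Cyp2* members with its 95% confidence interval from edgeR, shaded by subfamily. *Cyp2g1* (1.80) and *Cyp2c55* (0.81) are the members with an adjusted p under 0.05, and *Cyp2b9* has the widest interval.

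Levels were compared between genes per kilobase of merged exons. In WT mice *Cyp2e1*, which oxidizes ethanol, acetaminophen and small solvents, stood highest by far, with 133900 ± 26046 normalized counts per kb (SD, n = 3), and it took 35.0% to 43.8% of all Cyp2 counts over the 6 mice. *Cyp2f2* followed with 22196 ± 1271, *Cyp2d26* with 21789 ± 1775, *Cyp2c29* with 21427 ± 3629 and *Cyp2d9* with 19692 ± 3640 normalized counts per kb, and these 4 lay within each other's spread. *Cyp2j5* (14724 ± 1304) and *Cyp2d10* (13836 ± 666) came next. In the *Fmo5-/-* mice *Cyp2c29* stood second with 24798 ± 3715 and *Cyp2f2* had 15821 ± 2089 normalized counts per kb. At the low end of the tested members *Cyp2s1*, *Cyp2j8* and *Cyp2a4* lay between 5.72 and 6.90 normalized counts per kb in WT.

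**Figure D2:**
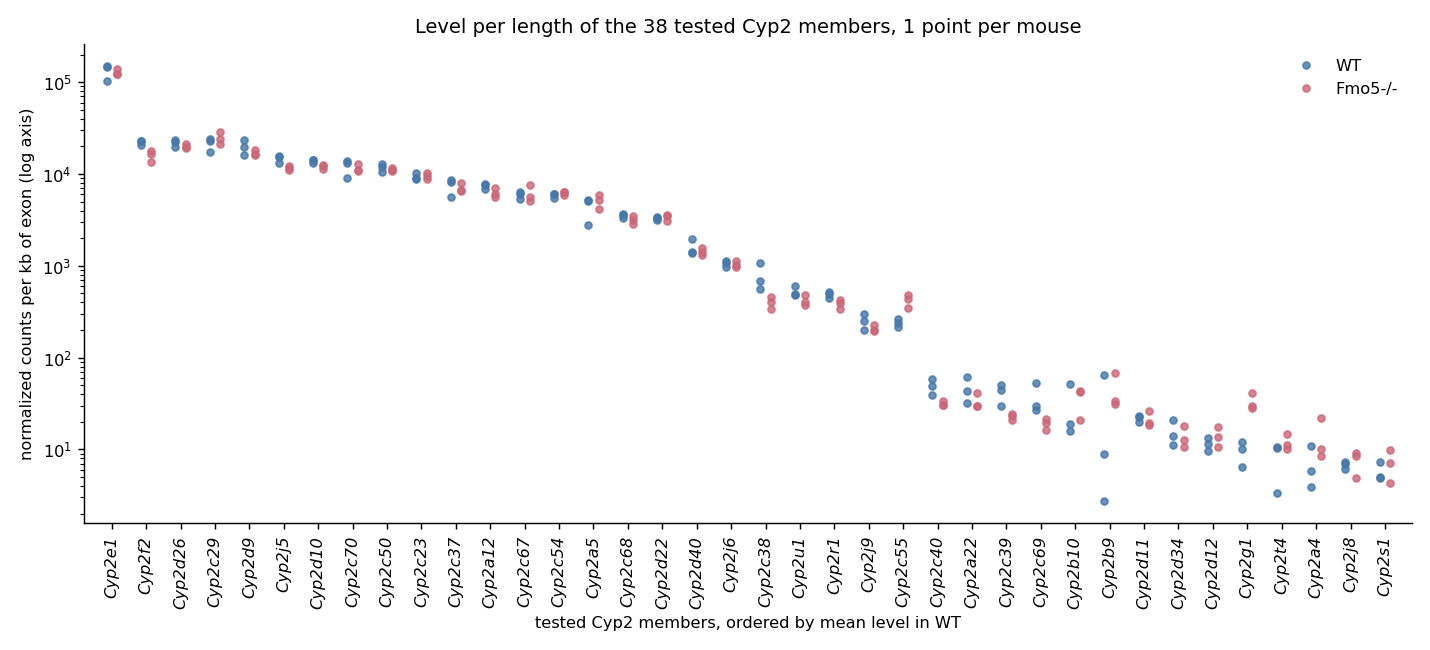
Normalized counts per kb of merged exons (log axis) of the 38 tested members, ordered by the WT mean, with 1 point per mouse. *Cyp2e1* lies above all others, and the points of the genotypes are apart for *Cyp2f2*, *Cyp2j5*, *Cyp2c38*, *Cyp2c55*, *Cyp2g1* and 5 other members and mixed for the rest.

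The *Cyp2c* subfamily has 15 members on chromosome 19 (mm10), of which 14 form a cluster from *Cyp2c55*, starting at 39007019, to *Cyp2c70*, ending at 40187333, and *Cyp2c23* lies apart from it at chr19:44005022-44029208. Its summed normalized counts were 187036 ± 15081 in WT and 194163 ± 12283 in *Fmo5-/-* mice (SD, n = 3). The sums overlapped and differed by 0.054 on the log2 scale (-0.0080 without WT replicate 3 and 0.00048 without *Fmo5-/-* replicate 1), while single members had log2 fold changes of either sign. *Cyp2c55*, at chr19:39007019-39042693 at one end of the cluster, encodes an epoxygenase and hydroxylase of arachidonate that is also made in colon. It had 479, 519 and 435 normalized counts in the WT mice and 948, 860.0 and 695 in the *Fmo5-/-* mice. Every *Fmo5-/-* mouse lay above every WT mouse. *Cyp2c55* rose 1.75-fold, a log2 fold change of 0.81 (SE 0.13, 95% interval 0.52 to 1.097, edgeR adjusted p = 0.0275), and DESeq2 gave an adjusted p of 2.68e-05. With 1 library left out the edgeR adjusted p was 0.0454 without WT replicate 2 and 0.00557 without *Fmo5-/-* replicate 3, but 0.0927 without WT replicate 1, 0.0562 without WT replicate 3, 0.101 without *Fmo5-/-* replicate 1 and 0.0665 without *Fmo5-/-* replicate 2, with log2 fold changes between 0.70 and 0.92.

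*Cyp2c38* and *Cyp2c39* are neighbours that encode a hydroxylase and epoxygenase of arachidonate and an enzyme that hydroxylates retinoic acid. *Cyp2c38* (chr19:39389556-39463075) had 3106, 1936 and 1609 normalized counts in the WT mice and 1324, 1163 and 971 in the *Fmo5-/-* mice. All 3 *Fmo5-/-* mice lay below the lowest WT mouse, and WT replicate 1 stood above the others. The log2 fold change was -0.94 (SE 0.26, 95% interval -1.56 to -0.33), with an adjusted p of 0.109 by edgeR and 0.000479 by DESeq2. It was -0.62 without WT replicate 1. *Cyp2c39* (chr19:39510862-39568529), at a far lower level, had 91.1, 81.5 and 54.2 normalized counts in WT and 41.9, 37.6 and 44.2 in *Fmo5-/-* mice. The genotypes again did not overlap, and the log2 fold change was -0.87 (SE 0.25), with an adjusted p of 0.0942 by edgeR and 0.0441 by DESeq2. Reads of this pair can mostly be told apart. Of the 75-base stretches of the transcripts, 98.1% in *Cyp2c38* and 97.0% in *Cyp2c39* occur in no other gene.

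*Cyp2c40*, whose enzyme hydroxylates arachidonate, and *Cyp2c69* lie next to each other farther along the cluster. *Cyp2c40* (chr19:39767071-39812814) had 80.5, 100.4 and 119 normalized counts in WT and 61.5, 68.8 and 62.8 in *Fmo5-/-* mice. *Cyp2c69* (chr19:39842814-39886799) had 45.5, 50.2 and 89.97 in WT and 27.9, 36.7 and 33.4 in *Fmo5-/-* mice. Both were without overlap and lower in *Fmo5-/-* mice, with log2 fold changes of -0.63 (SE 0.20) and -0.92 (SE 0.31), but neither passed edgeR (adjusted p of 0.125 and 0.133) nor DESeq2 (0.0867 and 0.0804). Without WT replicate 3, the highest of the WT mice, the log2 fold change of *Cyp2c69* was -0.54. Reads of these 2 genes are hard to tell apart: 54.1% of the 75-base stretches of *Cyp2c40* and 57.4% of those of *Cyp2c69* were unique, and 27.7% of those of *Cyp2c40* were found in *Cyp2c69*. *Cyp2c67* and *Cyp2c68* also share stretches with *Cyp2c40* (24.7% and 23.2% of theirs) and were 64.0% and 71.5% unique. Their WT means were 10219 and 6071 normalized counts, far above those of this pair. Single reads of this length that match several of these genes were left out by the counting, so their values rest on part of each transcript.

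Of the other *Cyp2c* members, 8 were tested and had log2 fold changes between -0.16 (*Cyp2c68*) and 0.21 (*Cyp2c29*), with overlapping genotypes. *Cyp2c29*, a CAR-induced epoxygenase and the member of the subfamily with the highest level per length, had 73549, 70322 and 52897 normalized counts in WT and 88063, 74126 and 65533 in *Fmo5-/-* mice, a log2 fold change of 0.21 (95% interval -0.13 to 0.55). It was 0.081 without WT replicate 3 and 0.089 without *Fmo5-/-* replicate 1. *Cyp2c70*, which makes the muricholic acids of mouse bile, had a log2 fold change of -0.047 (95% interval -0.42 to 0.32), and *Cyp2c23*, an arachidonate epoxygenase, one of 0.030 (95% interval -0.19 to 0.25). *Cyp2c67*, *Cyp2c50* and *Cyp2c54* likewise lay near 0, at 0.045, -0.072 and 0.084. *Cyp2c65* and *Cyp2c66*, which sit between *Cyp2c55* and *Cyp2c29* and are known from the intestine, had 0 to 5 counts per library and were not tested.

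**Figure D3:**
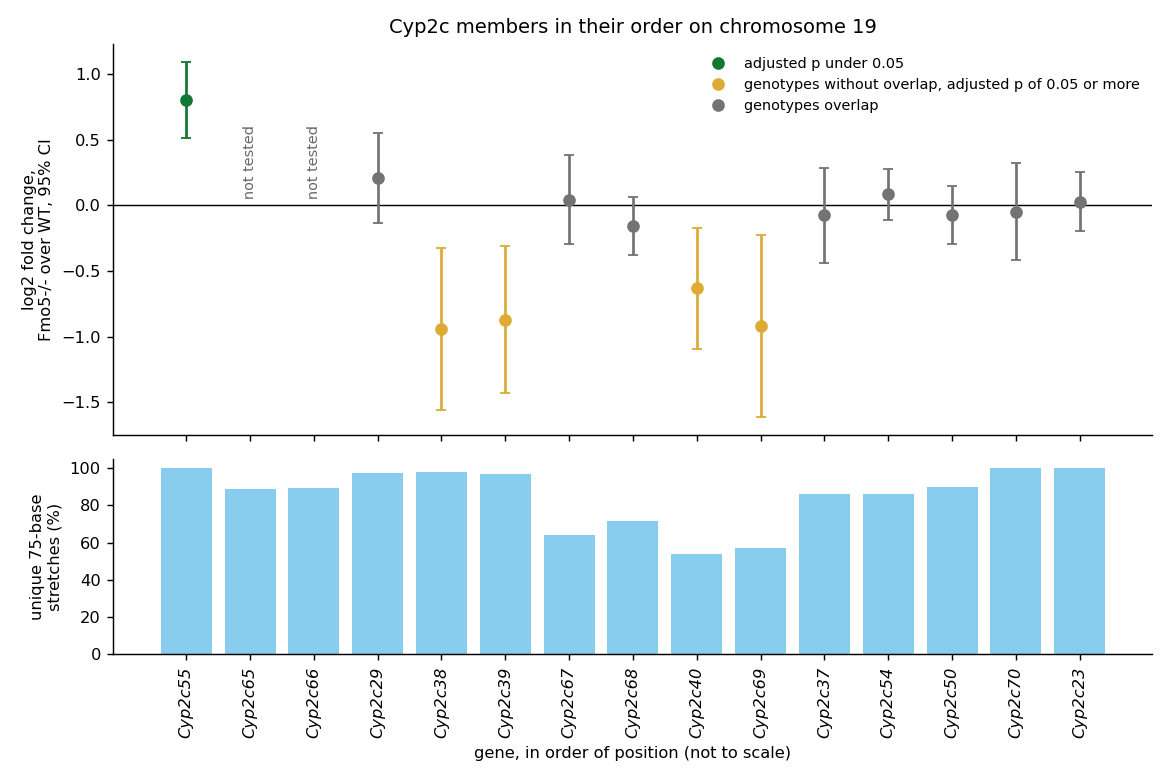
The 15 *Cyp2c* members in their order along chromosome 19, with the log2 fold change and its 95% confidence interval (upper panel) and the percentage of 75-base stretches of the transcripts that occur in no other gene (lower panel). *Cyp2c55* lies above 0, *Cyp2c38*, *Cyp2c39*, *Cyp2c40* and *Cyp2c69* lie below 0, and the members between and beyond these pairs lie near 0.

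The promoters of the 5 *Cyp2c* members without overlap between genotypes are shown, of which 1 was higher (13.9% of all genes were higher without overlap) and 4 were lower (13.5%), none of the 4 called by edgeR. RefSeq (GRCm38.p6) gives 300 bases for each, from 250 before to 50 after the start, written 5′ to 3′ on the strand of the gene. Capitals mark TATAAA, the core of a TATA box, and CAAAGTCCA, the core of a binding site of HNF4A, a main activator of hepatic P450 genes. They lie at chr19:39006769-39007068 (plus strand), chr19:39463026-39463325 (minus), chr19:39510572-39510871 (plus), chr19:39812765-39813064 (minus) and chr19:39886720-39887019 (minus). The RefSeq start lies 40 bases from the start in the annotation for *Cyp2c39* and 30 bases for *Cyp2c69*. RefSeq lists a second promoter for *Cyp2c39*, at chr19:39347096-39347395, far from the annotated start, which was searched for motifs but is not printed.
Cyp2c55: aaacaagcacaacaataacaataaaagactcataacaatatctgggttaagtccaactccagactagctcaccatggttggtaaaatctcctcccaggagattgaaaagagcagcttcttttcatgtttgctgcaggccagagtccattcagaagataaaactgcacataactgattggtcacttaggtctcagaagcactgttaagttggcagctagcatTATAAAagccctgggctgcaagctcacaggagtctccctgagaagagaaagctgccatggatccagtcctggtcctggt
Cyp2c38: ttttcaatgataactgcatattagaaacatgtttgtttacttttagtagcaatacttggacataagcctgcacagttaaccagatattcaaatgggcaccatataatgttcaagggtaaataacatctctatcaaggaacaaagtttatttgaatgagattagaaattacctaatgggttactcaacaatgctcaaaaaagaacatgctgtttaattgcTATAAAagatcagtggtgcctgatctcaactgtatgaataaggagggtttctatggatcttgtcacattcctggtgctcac
Cyp2c39: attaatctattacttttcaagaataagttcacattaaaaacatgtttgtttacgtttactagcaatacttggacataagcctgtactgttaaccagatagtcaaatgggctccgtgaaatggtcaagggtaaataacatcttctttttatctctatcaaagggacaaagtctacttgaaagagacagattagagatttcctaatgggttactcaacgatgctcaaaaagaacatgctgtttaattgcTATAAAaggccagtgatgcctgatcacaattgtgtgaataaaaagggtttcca
Cyp2c40: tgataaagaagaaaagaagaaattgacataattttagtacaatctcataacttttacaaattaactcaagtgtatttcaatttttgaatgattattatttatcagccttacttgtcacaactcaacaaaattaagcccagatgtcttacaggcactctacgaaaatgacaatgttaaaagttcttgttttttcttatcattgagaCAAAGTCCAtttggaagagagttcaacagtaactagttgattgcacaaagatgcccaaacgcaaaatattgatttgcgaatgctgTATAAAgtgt
Cyp2c69: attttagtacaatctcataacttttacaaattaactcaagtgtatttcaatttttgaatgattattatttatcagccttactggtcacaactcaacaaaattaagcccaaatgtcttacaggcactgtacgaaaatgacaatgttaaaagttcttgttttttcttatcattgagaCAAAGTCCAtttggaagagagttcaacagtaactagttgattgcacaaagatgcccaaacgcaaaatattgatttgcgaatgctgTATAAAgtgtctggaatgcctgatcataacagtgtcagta
TATAAA occurs in all 5, on the strand of the gene, beginning at base -29 from the start in *Cyp2c55*, -31 in *Cyp2c38* and -3 in *Cyp2c39*. In *Cyp2c40* and *Cyp2c69* it begins after the RefSeq start, at 41 and 11. CAAAGTCCA occurs in *Cyp2c40* (at -45) and *Cyp2c69* (at -75) and in none of the other 3. In a local alignment the promoters of *Cyp2c38* and *Cyp2c39* were 83.2% identical over 286 columns and those of *Cyp2c40* and *Cyp2c69* 98.9% over 270. *Cyp2c55* reached 59.1% to 62.5% with the other 4, over only 80 to 208 columns. Between the 2 neighbour pairs the values were 61.1% to 64.3%, over 242 to 300 columns. Percentages over such different lengths cannot be compared directly.

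Promoters in the RefSeq table were found for 40 of the 48 members, 42 sequences in all, and were searched on both strands for 8 motifs, beside all 32851 promoters of the table. TATAAA was found in 21 of the 40 members and in 13.6% of all promoters. CAAAGTCCA was found in 6 members, all of the *Cyp2c* cluster (*Cyp2c40*, *Cyp2c65*, *Cyp2c67*, *Cyp2c68*, *Cyp2c69* and *Cyp2c70*), and in 0.475% of all promoters. Of these 6, *Cyp2c67*, *Cyp2c68* and *Cyp2c70* had overlapping genotypes. AGGTCA, the core bound by CAR, PXR and other nuclear receptors, was found in 13 members, among them *Cyp2f2*, *Cyp2j5* and *Cyp2c29*, and in 16.3% of all promoters. *Cyp2c39* counts among the 13 through its second promoter, which holds no TATA box of these letters. CCAAT was found in 19 members (37.4% of all promoters), TGACNNNGC, the core of the antioxidant response element, whose first 4 letters also begin the reverse complement of AGGTCA, in 3 (12.4%), and TTCNNNGAA, bound by STAT5, in 2 (8.30%). TTGCGCAA, bound by C/EBP factors, and the palindrome of HNF1 were found in 0 members, and in 0.183% and 0.00913% of all promoters. These are matches of letters only.

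*Cyp2g1* (chr7:26808892-26821205) encodes a P450 best known from olfactory mucosa and lies between *Cyp2b19* and *Cyp2a5* in the *Cyp2* cluster of chromosome 7. It was counted 13, 23 and 21 times in the WT mice and 69, 66 and 89 times in the *Fmo5-/-* mice, or 13.8, 25.7 and 21.5 against 64.3, 60.6 and 87.4 normalized counts. The lowest *Fmo5-/-* mouse lay above the highest WT mouse. *Cyp2g1* rose 3.47-fold, a log2 fold change of 1.80 (SE 0.29, 95% interval 1.14 to 2.45, edgeR adjusted p = 0.0292), with a DESeq2 adjusted p of 7.79e-05. The level stayed low in both genotypes, at 9.46 ± 2.81 normalized counts per kb in WT and 33.0 ± 6.77 in *Fmo5-/-* mice. The edgeR adjusted p was 0.0422 without *Fmo5-/-* replicate 2 and 0.0251 without *Fmo5-/-* replicate 3, but 0.0976 without WT replicate 1, 0.05004 without WT replicate 2, 0.0595 without WT replicate 3 and 0.0943 without *Fmo5-/-* replicate 1, with log2 fold changes from 1.59 to 1.997.

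**Figure D4:**
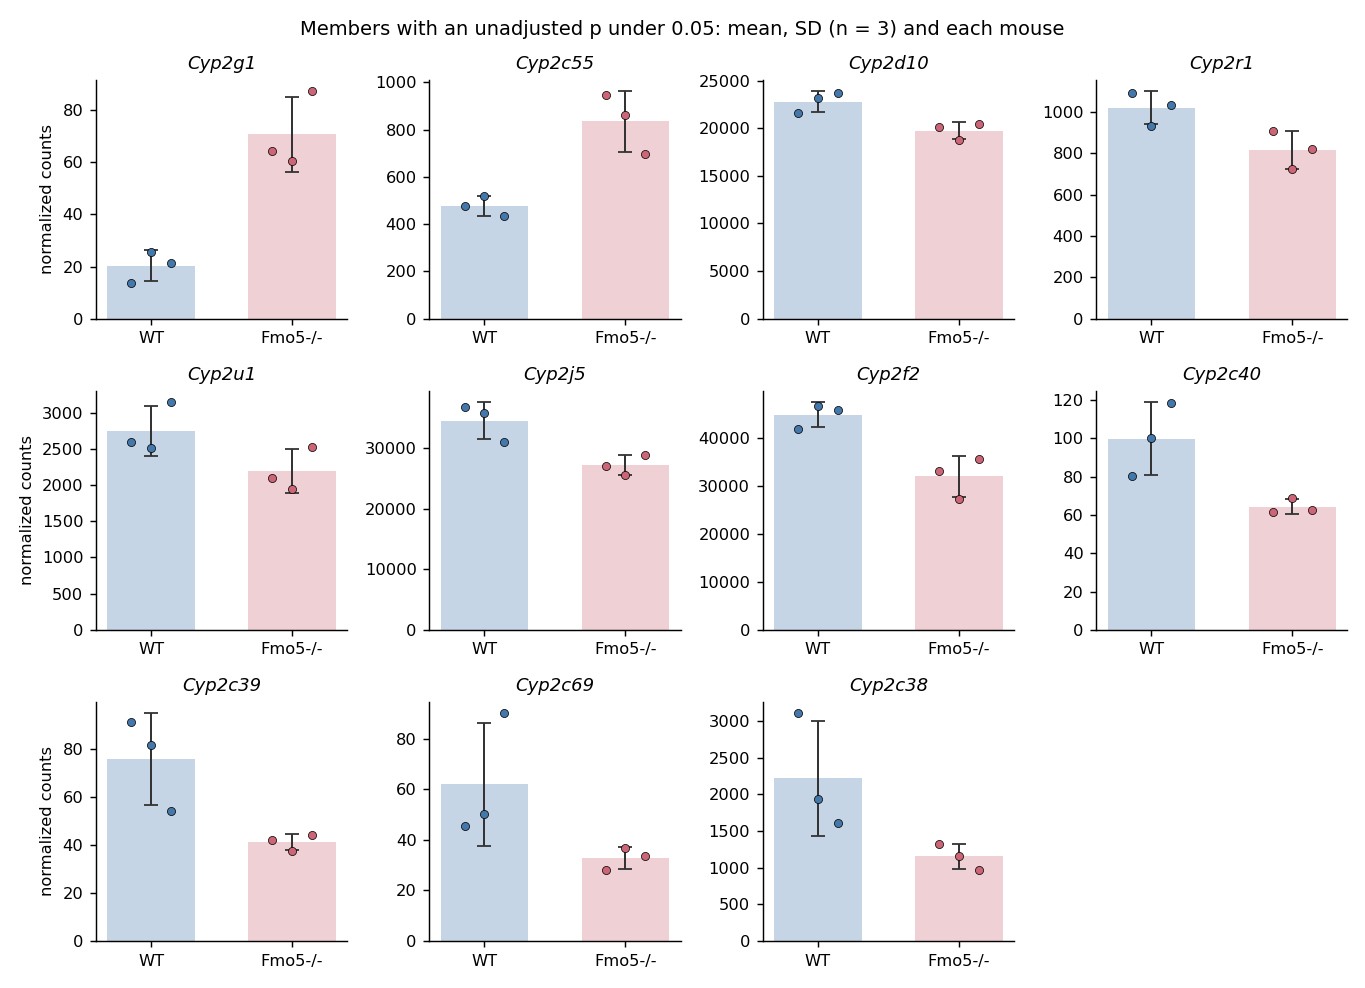
Normalized counts of the 11 members with an unadjusted p under 0.05, ordered by log2 fold change, with the mean (bar), the SD (whisker, n = 3) and each mouse (point). The genotypes do not overlap except in *Cyp2u1*, and *Cyp2g1* and *Cyp2c55* are the 2 that are higher in *Fmo5-/-* mice.

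Arachidonate epoxygenation in liver and kidney is also carried out by *Cyp2j5*, the main member of a subfamily of 8 genes on chromosome 4. *Cyp2j5* (chr4:96628773-96664154) had 36797, 35737 and 31049 normalized counts in the WT mice and 27036, 25639 and 28871 in the *Fmo5-/-* mice. Every *Fmo5-/-* mouse was below every WT mouse. The log2 fold change was -0.35 (SE 0.10, 95% interval -0.57 to -0.12), with an adjusted p of 0.0972 by edgeR and 0.0211 by DESeq2. *Cyp2j6*, *Cyp2j8* and *Cyp2j9* had overlapping genotypes and log2 fold changes of -0.018, 0.14 and -0.27 (for *Cyp2j9* -0.11 without WT replicate 1), and the total of the subfamily, most of which is *Cyp2j5*, did not overlap (41302, 40429 and 35765 normalized counts in WT, 31185, 30009.9 and 33703 in *Fmo5-/-* mice). *Cyp2j7*, *Cyp2j11* and *Cyp2j12* had 0 to 2 counts per library. *Cyp2j13* had no count in any library, where a count of 0 allows up to 3 counts, or 0.0573 to 0.0668 CPM, by counting error alone.

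*Cyp2f2* (chr7:27119909-27133660), which activates naphthalene in lung club cells and is expressed in periportal hepatocytes, had 42014, 46835 and 45991 normalized counts in the WT mice and 33127, 27369 and 35617 in the *Fmo5-/-* mice. The groups were well apart, with the highest *Fmo5-/-* mouse below the lowest WT mouse. The log2 fold change was -0.49 (SE 0.11, 95% interval -0.75 to -0.23), with an adjusted p of 0.0687 by edgeR and 0.00203 by DESeq2. Without *Fmo5-/-* replicate 3, *Cyp2f2* passed edgeR too, at an adjusted p of 0.0449 and a log2 fold change of -0.57. The annotation places 13.5% of its exon bases within exons of *Gm15883*, and without strand the reads of both cannot be told apart there.

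The *Cyp2e1* counts (chr7:140763739-140774987) were 317109, 325523 and 224235 in WT and 265975, 302717 and 264615 in *Fmo5-/-* mice after normalization. All *Fmo5-/-* mice lay within the WT range, and the log2 fold change was -0.057 (95% interval -0.39 to 0.28). WT replicate 3 had the lowest value of its genotype here, and did so in all 6 tested members expressed in the perivenous zone. In *Cyp2a5*, the coumarin hydroxylase, the WT mice had 10609, 10825 and 5767 normalized counts and the *Fmo5-/-* mice 10913, 12089 and 8608. *Cyp2c37*, a CAR-induced member, had 15016, 15705 and 10339.9 in WT and 14642, 11958 and 12344 in *Fmo5-/-* mice. *Cyp2c50* had 34489, 37022 and 30948 in WT and 33984, 31919 and 31536 in *Fmo5-/-* mice, and *Cyp2c54* had 10702, 10815 and 9810.2 against 11407, 10458 and 11348. WT replicate 3 was also lowest of its genotype in 12 of 15 perivenous genes outside the family, and in 5 of 15 periportal genes. Among the *Fmo5-/-* mice, replicate 3 was lowest in 4 of the 6 perivenous members and in 11 of the 15 perivenous genes, and replicate 2 was lowest in 12 of the 15 periportal genes and in *Cyp2f2*. The part of these differences between mice in the results was not tested. None of the 6 perivenous members was called by edgeR or DESeq2 or had an unadjusted p under 0.05. Of all genes, 1.37%, 8.96% and 21.8% did so in either direction. The log2 fold changes of these members lay between -0.076 and 0.22. Without WT replicate 3 the log2 fold change of *Cyp2e1* was -0.21 and that of *Cyp2a5* -0.021.

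The *Cyp2d* subfamily, 8 genes on chromosome 15 that include hydroxylases of steroids and drugs, summed to 130068 ± 12589 normalized counts in WT and 116309 ± 6315 in *Fmo5-/-* mice (SD, n = 3), and the sums overlapped. *Cyp2d26*, the highest per length in WT, had 39663, 41871 and 35601 normalized counts in WT and 37562, 34435 and 35096 in *Fmo5-/-* mice, a log2 fold change of -0.13 (95% interval -0.35 to 0.087). *Cyp2d10* was the subfamily's member without overlap, with 21567, 23172 and 23668 normalized counts in WT and 20087, 18735 and 20449.8 in *Fmo5-/-* mice. Its log2 fold change was -0.21 (SE 0.087), with an adjusted p of 0.206 by edgeR and 0.131 by DESeq2, and 77.7% of its 75-base stretches were unique, the largest shared part being with *Cyp2d11*. *Cyp2d9*, the testosterone hydroxylase of male liver, had 42452, 61786 and 52790.3 normalized counts in WT and 48247, 42785 and 43793 in *Fmo5-/-* mice. WT replicate 1 lay below all 3 *Fmo5-/-* mice and the other 2 WT mice lay above them. The log2 fold change was -0.22 (95% interval -0.53 to 0.088), and it was -0.34 without WT replicate 1 and -0.082 without WT replicate 2. The remaining members, *Cyp2d11*, *Cyp2d12*, *Cyp2d22*, *Cyp2d34* and *Cyp2d40*, had log2 fold changes from -0.16 to 0.30, and *Cyp2d22*, at 0.036 (95% interval -0.17 to 0.24), varied least among the WT mice of all tested members, with a coefficient of variation of 3.17%.

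In the *Cyp2a* subfamily, *Cyp2a12*, which hydroxylates bile acids in mouse liver and is its highest member per length, had 23549, 26604 and 25914 normalized counts in WT and 21063, 19602 and 24204 in *Fmo5-/-* mice. The highest *Fmo5-/-* mouse exceeded the lowest WT mouse, and the log2 fold change was -0.23 (95% interval -0.47 to 0.0071). *Cyp2a22* had a log2 fold change of -0.45 (95% interval -1.03 to 0.13), and of -0.17 without WT replicate 1. *Cyp2a4*, a testosterone hydroxylase that prevails in female liver, had only 19.1, 6.70 and 10.2 normalized counts in WT and 17.7, 38.5 and 14.7 in *Fmo5-/-* mice, a log2 fold change of 0.97 (95% interval -0.13 to 2.08). It was 0.43 without *Fmo5-/-* replicate 2, which stood above the other mice, and 1.47 without WT replicate 1. Of the 75-base stretches of *Cyp2a4*, 77.9% were unique and 21.0% were shared with *Cyp2a5*, which had a WT mean of 9067 normalized counts. The part of *Cyp2a5* reads in these low counts was not tested.

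The phenobarbital-inducible *Cyp2b* genes were low and uneven from mouse to mouse. *Cyp2b10*, the classical CAR target, had 108, 33.5 and 39.9 normalized counts in WT and 88.5, 90.9 and 44.2 in *Fmo5-/-* mice. *Cyp2b9* had 122, 16.7 and 5.11 in WT and 127, 58.7 and 63.8 in *Fmo5-/-* mice. WT replicate 1 was the highest of all 6 mice in *Cyp2b10* and second to *Fmo5-/-* replicate 1 in *Cyp2b9*, while in both genes the other 2 WT mice lay below all *Fmo5-/-* mice, and the coefficient of variation of *Cyp2b9* in WT was 134%. The total of the subfamily differed by 0.54 on the log2 scale, and by 1.72 without WT replicate 1, so that this mouse decides the value. *Cyp2b13*, *Cyp2b19* and *Cyp2b23* had 0 or 1 count per library.

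Vitamin D is hydroxylated in liver by the product of *Cyp2r1* (chr7:114549682-114562972), which had 1093, 934 and 1034 normalized counts in WT and 906, 721 and 823 in *Fmo5-/-* mice. The genotypes did not overlap, and the log2 fold change was -0.32 (SE 0.10), with an adjusted p of 0.128 by edgeR and 0.0953 by DESeq2. *Cyp2u1* (chr3:131288441-131303227), a hydroxylase of long-chain fatty acids on the chromosome of *Fmo5*, had 2590.4, 2512 and 3144 in WT and 2102, 1950.4 and 2531 in *Fmo5-/-* mice. *Fmo5-/-* replicate 3 lay just above the lowest WT mouse, and the log2 fold change was -0.33 (SE 0.12, adjusted p = 0.167 by edgeR and 0.118 by DESeq2). It was -0.21 without WT replicate 3. Of its exon bases, 10.45% lie in exons of 4930534D22Rik. *Cyp2s1*, known from epithelia outside the liver, had 24.4, 24.5 and 35.8 normalized counts in WT and 21.4, 48.6 and 35.3 in *Fmo5-/-* mice. *Cyp2t4* had 16.9, 5.58 and 17.4 in WT and 24.2, 18.4 and 16.7 in *Fmo5-/-* mice. Neither pair of groups was apart, and *Cyp2w1* had 1 count in 1 *Fmo5-/-* mouse and 0 elsewhere.

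Grouped by what is known of their control, 6 members with female-biased expression were tested. None was called by edgeR, 1 (*Cyp2c39*) was lower by DESeq2, against 4.21% of all genes, and 3 were lower with an unadjusted p under 0.05 (*Cyp2c39*, *Cyp2c40* and *Cyp2c69*), where 21.8% of all genes had such a p in either direction. *Cyp2a4*, *Cyp2b9* and *Cyp2b10* had log2 fold changes above 0 with intervals that span 0. The 2 male-biased members, *Cyp2d9* and *Cyp2u1*, were not called by edgeR (1.37% of all genes in either direction) or DESeq2 (8.96%). *Cyp2u1* had an unadjusted p of 0.0253 by edgeR, where 21.8% of all genes had one under 0.05. Of the 9 tested members classed as CAR or PXR targets, *Cyp2c55* was called higher by edgeR (0.675% of all genes), none was lower (0.693%), 2 had a log2 fold change below 0 (49.2% of all genes), and the median was 0.22, against 0.0058 over all genes tested. WT replicate 3 was the lowest of its genotype in 7 of these 9, and without it the median was 0.073. With 1 library left out the median ranged from 0.073 to 0.35, and the call of *Cyp2c55* was lost in the 4 cases given above.

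Other genes of P450 function and control were taken from lists that were chosen with earlier results of these data known. Of the 21 tested CAR and PXR targets outside the family, 1 rose, *Gstm3*, a glutathione transferase (1855 ± 305 to 3339 ± 548 normalized counts, log2 fold change 0.85, edgeR adjusted p = 0.0431), and 1 fell, *Ephx1*, the microsomal epoxide hydrolase (22697 ± 1840.0 to 15370.5 ± 1099, log2 fold change -0.56, edgeR adjusted p = 0.0378), against 0.675% and 0.693% of all genes. DESeq2 called 2 higher and 2 lower (8.96% of all genes in either direction), and 2 higher and 4 lower had an unadjusted p under 0.05 (21.8% of all genes in either direction). The median of the list was -0.16, -0.046 without WT replicate 1 and -0.097 with a mean of 500 required before the fit. With edgeR the adjusted p of *Gstm3* was 0.0771 without WT replicate 2, 0.0803 without WT replicate 3, 0.130 without *Fmo5-/-* replicate 1, 0.0890 without *Fmo5-/-* replicate 2 and 0.0615 with a mean of 500 required before the fit. That of *Ephx1* was 0.124, 0.0700 and 0.0544 without WT replicates 1, 2 and 3, 0.0881 and 0.0964 without *Fmo5-/-* replicates 1 and 2, and 0.0602 with a mean of 500 before the fit. *Ephx1* was also the 1 gene called among 13 partners in the use of arachidonate and its epoxides, whose median was -0.19 (-0.33 to -0.098 with 1 library left out), while DESeq2 called 2 higher and 3 lower (8.96% of all genes in either direction), and the same numbers had an unadjusted p under 0.05 (21.8%). The 15 perivenous genes outside the family had a median of 0.22, 3 were higher and 1 lower with an unadjusted p under 0.05 (21.8% of all genes), DESeq2 called 1 higher and 1 lower (8.96%), and 1 rose by edgeR (0.675%), *Cyp1a2*, the P450 of caffeine (30709 ± 1541 to 48272 ± 3707 normalized counts, log2 fold change 0.65, edgeR adjusted p = 0.0208). The edgeR adjusted p of *Cyp1a2* was 0.0855 without WT replicate 1 and 0.0778 without *Fmo5-/-* replicate 1. The median of the perivenous list was 0.082 without WT replicate 3, -0.00096 without *Fmo5-/-* replicate 2 and 0.38 without *Fmo5-/-* replicate 3. Among 15 periportal genes none was called by edgeR, 5 had an unadjusted p under 0.05 (21.8% of all genes), DESeq2 called 1 higher and 3 lower (8.96% of all genes in either direction), and the median was -0.097. It was -0.20 without *Fmo5-/-* replicate 1 and -0.014 without *Fmo5-/-* replicate 2, the lowest of its genotype in 12 of the 15, and -0.035 with a mean of 500 required before the fit. The smallest p there was that of *Hsd17b6*, a steroid dehydrogenase, at 2976 ± 1123 in WT and 5824 ± 295 in *Fmo5-/-* mice (edgeR adjusted p = 0.09998).

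Among 18 genes of electron transfer and haem synthesis edgeR called none, 6 were lower with an unadjusted p under 0.05, against 21.8% of all genes in either direction, DESeq2 called 1 lower (4.21% of all genes), and the median was -0.061 (-0.12 to -0.0086 with 1 library left out, and 0.0050 with a mean of 500 required before the fit). *Pgrmc1*, a haem-binding partner of P450s, had the smallest p, at 81941 ± 9107 in WT and 63872 ± 5746 normalized counts in *Fmo5-/-* mice (edgeR adjusted p = 0.122), and *Por*, the P450 oxidoreductase, had a log2 fold change of 0.023. None of 34 regulators was called by edgeR, 3 were lower with an unadjusted p under 0.05 (21.8% of all genes in either direction), DESeq2 called 1 lower (4.21%), and the median was -0.062 (-0.14 to -0.040 with 1 library left out, and -0.0092 with a mean of 500 required before the fit). *Nfe2l2*, which encodes NRF2, had the smallest p (4324 ± 286 in WT and 3525 ± 182 in *Fmo5-/-* mice, edgeR adjusted p = 0.0939), and *Nr1i3*, which encodes CAR, and *Nr1i2*, which encodes PXR, had log2 fold changes of -0.038 and -0.21. The male-biased genes outside the family had a median of -0.19 over 13 tested (-0.38 to -0.070 with 1 library left out, and -0.12 with a mean of 500 required before the fit), with none called by edgeR, 3 lower at an unadjusted p under 0.05 (21.8% of all genes in either direction), 2 lower by DESeq2 (4.21% of all genes) and the smallest p for *Gna14*, a G protein subunit (447 ± 106 to 139.9 ± 61.1, edgeR adjusted p = 0.0552). WT replicate 1 was the lowest of its genotype in 12 of these 13 genes and *Fmo5-/-* replicate 2 in 8, and their part in the values was not tested. Of the female-biased genes outside the family 7 were tested, and none passed edgeR, DESeq2 or an unadjusted p under 0.05. The shares of all genes that did so were 1.37%, 8.96% and 21.8% in either direction. The median of these 7 genes was 0.16 (0.038 to 0.19 with 1 library left out). *Cyp17a1*, a steroid hydroxylase, had the smallest p (384 ± 148 to 281 ± 51.3, edgeR adjusted p = 0.367).

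**Figure D5:**
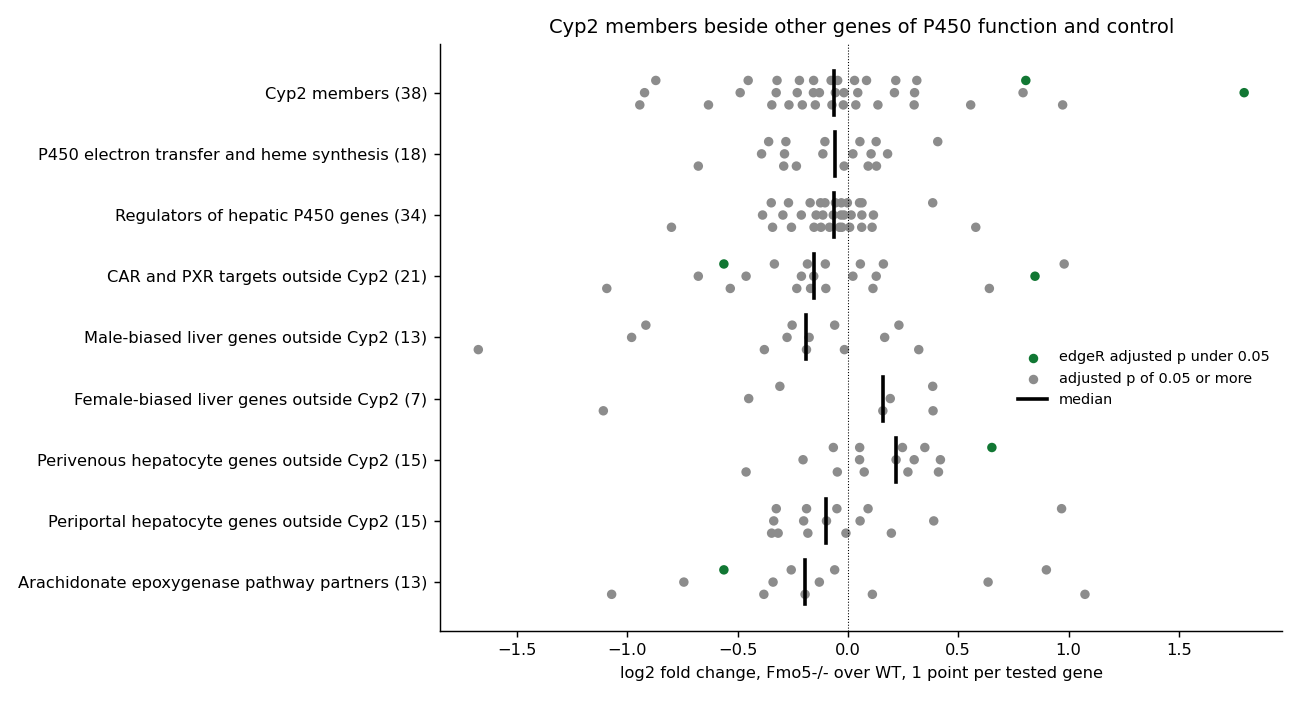
Log2 fold change (*Fmo5-/-* over WT, x axis) of each tested gene in the Cyp2 family and in 8 lists of other genes, with the number tested in brackets, the median as a black bar and genes at an edgeR adjusted p under 0.05 in green. The 38 Cyp2 members have a median of -0.065, and the lists have medians between -0.19 and 0.22.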

How the data were processed

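The authors mapped single reads to mm10 with STAR 2.6.0c and deposited, for each of the 6 libraries, STAR's raw counts per gene. STAR counts a read only where its place and its gene are unique, and the counts of both strands were used. In the authors' comparison table the deposited signal columns hold these counts after scaling by size factors of DESeq2. They served to identify genes and the column of counts. Its log2 fold changes, standard errors, Wald statistics and p-values were not used. The annotation release of the authors is not given in the sources used here, and positions, exon lengths and 75-base stretches come from GENCODE vM21, which matched 54409 of 54446 identifiers.

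Genes were kept with filterByExpr of edgeR 4.0.16 (R 4.3.3, minimum count 10), given TMM factors and tested two-sided by robust quasi-likelihood, with Benjamini-Hochberg adjustment over 16734 genes. On simulated data edgeR recovered 16.4%, 79.1% and 90.9% of log2 changes of 0.5, 1 and 2. There each gene was given the variance of the trend for its level, without scatter between genes. The rates for genes more variable than the trend were not measured. Replicate numbers follow accession order and only name the mice. Alternatives were DESeq2 1.42.0, RLE factors, scaling without the 20 most abundant genes, no filter except 1 count, a mean of 500 before the fit and each library left out. Values per mouse are given for members called, with an unadjusted p under 0.05, highest per length in a subfamily, or sex-biased or zonated. The members and lists were chosen with earlier results of these data known. Promoters were aligned with Biopython 1.88. Intervals and count limits cover counting error or the spread of these mice only.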

Additional observations from a re-analysis of the deposited data

How the results depend on the processing

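Of the 38 tested members, 2 were called higher and 0 lower with edgeR. The count of higher members was 1 with a mean of 500 required before the fit and 0 to 2 with 1 library left out. The count of lower members was 4 with DESeq2, 6 with no filter on low counts (*Cyp2c39*, *Cyp2c69*, *Cyp2f2*, *Cyp2j5*, *Cyp2r1* and *Cyp2u1*) and 0 to 1 with 1 library left out. Over all genes, higher calls numbered 739 with DESeq2, 1093 with no filter, 30 with a mean of 500 before the fit and 16 to 606 with 1 library left out, and lower calls 656, 896, 23 and 15 to 157. The highest counts of both came without *Fmo5-/-* replicate 3 and the lowest without *Fmo5-/-* replicate 1. With a mean of 500 before the fit, the log2 fold change turned to 0.016 for *Cyp2c70*, 0.012 for *Cyp2e1* and 0.047 for *Cyp2j6*. With 1 library left out it changed sign in 12 members, none of them called: *Cyp2a5* (-0.021 to 0.36), *Cyp2c23* (-0.025 to 0.10), *Cyp2c37* (-0.24 to 0.035), *Cyp2c67* (-0.15 to 0.16), *Cyp2c70* (-0.21 to 0.069), *Cyp2d11* (-0.19 to 0.072), *Cyp2d22* (-0.017 to 0.10), *Cyp2d34* (-0.39 to 0.15), *Cyp2d40* (-0.25 to 0.035), *Cyp2e1* (-0.21 to 0.039), *Cyp2j6* (-0.082 to 0.032) and *Cyp2j8* (-0.021 to 0.36). With the sign kept, values of members that were not called moved by over 1.5 times in *Cyp2b9* (0.26 to 2.94), *Cyp2b10* (0.015 to 1.02), *Cyp2c50* (-0.13 to -0.0091), *Cyp2c54* (0.046 to 0.12), *Cyp2c68* (-0.25 to -0.084), *Cyp2d12* (0.091 to 0.47), *Cyp2d26* (-0.19 to -0.075), *Cyp2s1* (0.0011 to 0.57) and *Cyp2t4* (0.20 to 0.80), beside those given with their values above. The *Cyp2b* total ranged from 0.17 to 1.72. The cause was not tested. Reads of 1 strand were not run as an alternative, because either strand held 49.9% to 50.1% of the counts on genes. No paired analysis was possible because the labels give the genotypes no shared replicate numbers.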
